A study of Rattus norvegicus with 4 samples.

Results

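The comparison described here sets whole rat testis 24 h after retinol against vitamin A-deficient testis (VAD), and it rests on 2 of the 4 deposited samples, 1 on each side. All the rats went onto a diet without vitamin A at 20 days of age and stayed on it for 9 weeks. The VAD sample received no retinol, and the other samples were taken 4, 8 and 24 h after retinol was given. Strain, retinol dose and the number of animals were left unstated in the labels, as was whether RNA of several animals or chips was combined, so each sample is called an array. With 1 array a side no difference could be tested between animals, and no p-value was computed. The deposited value of a probe set, the group of short probes that reads a transcript, was a linear ratio to a reference that is not stated. The ratios keep no signal level, so the presence of the tissue's cell types could not be checked from marker levels. The change of a gene is the log2 difference in ratio, 24 h minus VAD, averaged over its probe sets, and 4736 genes had a value from 7006 probe sets that carried 1 gene symbol.

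Retinol is the transport form of vitamin A. Tissues oxidise it to retinoic acid, which binds nuclear receptors that regulate transcription. In the testis, retinoic acid drives spermatogonia to differentiate and enter meiosis, and without the vitamin the tubules lose their more advanced germ cells. Leydig cells, which lie between the tubules, make testosterone from cholesterol. Cyp11a1 cuts the cholesterol side chain in mitochondria with electrons from the ferredoxin Fdx1, and Cyp17a1 acts later in the endoplasmic reticulum.

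Genes past 2-fold at 24 h numbered 155 on the higher side, 3.27% of all genes, and 125 on the lower side, 2.64% of all genes. The median gene stood at -0.12 with an SD of 0.52 over genes, and 59.9% of genes lay below VAD. Centring both arrays on their median gene gave 203 higher and 80 lower genes. Scaling them on the bacterial spike-in controls, which were lower at 24 h in 9 of 9 probe sets, gave 744 and 13, because it moves every gene up by 0.62. The direction of a change between 0 and -0.62 therefore holds only for the ratios as deposited. Gene groups are placed below against the median of all genes, which does not depend on the scaling. Their counts past 2-fold are to be read beside the shares over all genes, 3.27% higher and 2.64% lower. The groups were written as lists with earlier results of these data known, so a count or median is a description and not a test. The genes nearest the 2-fold threshold stood at 1.0005 (inside) and 0.983 (outside) among the higher genes. Among the lower ones the sperm tail gene Odf1 lay on it and the next gene stood at -0.9987, outside it. In all, 190 genes lay within 0.1 of it.

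The array reads 1083 genes from more than 1 database entry (source sequence), and these readings are the only repeat within the comparison. The SD of a single source sequence, taken from the differences between 2 source sequences of the same gene, was 0.56 on the log2 scale, a factor of 1.47. The corresponding error of a gene mean was 0.56 for 1 source sequence, 0.39 for 2 and 0.32 for 3. It leaves out the spread between animals and takes source sequences as independent, although entries of a gene can overlap in sequence. The SD over all genes, 0.52, was no larger than the error for 1 source sequence. Of the genes past 2-fold, 134 of the 155 higher and 111 of the 125 lower had 1 source sequence. The part of this error in the 2 counts was not tested, so they are not counts of genes that respond to retinol. The median difference in size between 2 source sequences of a gene was 0.50. Across the 1083 genes the paired changes had a Pearson correlation of 0.13, and genes are not independent replicates. At least 1 source sequence of the pair passed 2-fold in 179 genes, and in 6 of them both passed it the same way.

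A gene was called agreeing when every source sequence differed from VAD by at least 1.5-fold in the same direction. By this rule 20 genes were higher and 20 lower, 1.85% of the 1083 genes each way. Median centring gave 32 and 15 such genes, and spike-in scaling 259 and 1. Pairs that passed the same threshold in opposite directions show how often source sequences contradicted each other. Of the 819 genes with exactly 2 source sequences, both passed 1.5-fold in 51. They were both higher in 15, both lower in 20 and in opposite directions in 16. At 2-fold, both passed in 4 genes, with 0 in opposite directions. Over all 1083 genes, every source sequence passed 2-fold in Akt2, Chka and Pfkfb3 (higher, 0.277%) and in Fdx1 and Hspd1 (lower, 0.185%). Only 21 of the 155 higher and 14 of the 125 lower genes had more than 1 source sequence. In 3 and 2 of these the source sequences had opposite signs, and 12 and 6 were agreeing.

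**Figure D1:**
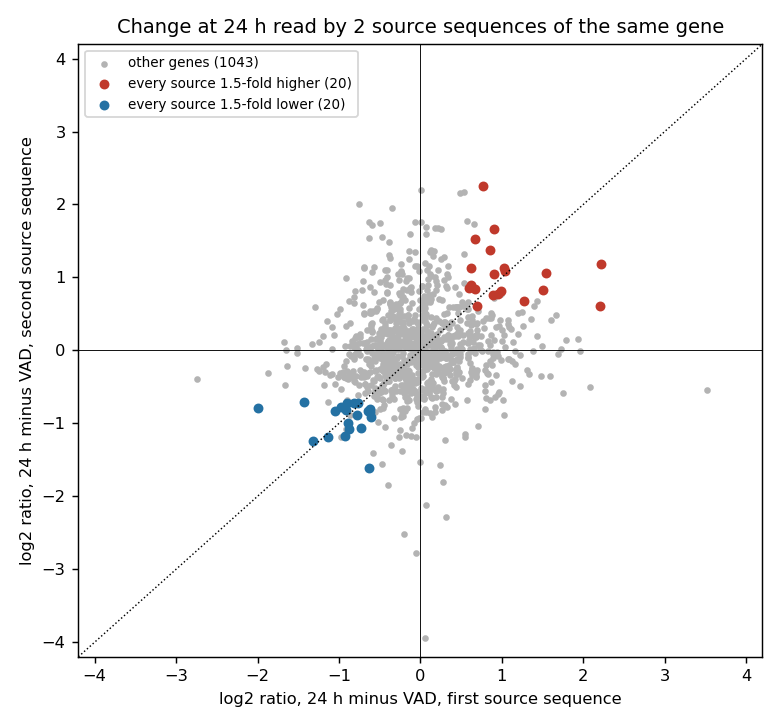
Each point is a gene read from more than 1 source sequence, with the log2 change at 24 h against VAD of one source sequence on the x axis and of another on the y axis. Red and blue points are the 20 higher and 20 lower agreeing genes, and most of the other 1043 genes form a round cloud with no visible slope.

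The higher agreeing genes are given by what they encode, beginning with signalling proteins. Akt2 encodes a protein kinase of the insulin pathway. Where 4 ratios follow each other here and below, they are those of VAD and of 4, 8 and 24 h. Its first source sequence had ratios of 0.579 in VAD and 1.47, 2.08 and 2.70 at 4, 8 and 24 h, and its second 0.609, 1.0, 1.11 and 1.39. VAD was the lowest and 24 h the highest array in both, with changes of 2.22 and 1.19 and a mean of 1.70 ± 0.39 (error between source sequences, 2 source sequences). Its VAD ratio was low, at 0.594 on average, and taken against a ratio of 1 the mean was 0.95. Pik3r1, the regulatory subunit of phosphoinositide 3-kinase that acts upstream of Akt, had ratios of 0.854, 1.37, 2.02 and 2.43 on one source sequence and 0.656, 0.683, 0.732 and 1.17 on the other. The second reading changed little before 24 h, and the changes at 24 h were 1.51 and 0.83. Met, the receptor of hepatocyte growth factor, stood at 1.27 and 0.68, and Gna12, a G protein subunit, at 0.90 and 0.76.

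Pfkfb3, an enzyme of glucose metabolism, makes the fructose bisphosphate that activates glycolysis. It had ratios of 1.49, 2.99, 4.52 and 3.06 in VAD and at 4, 8 and 24 h on one source sequence and 1.04, 2.18, 2.29 and 2.22 on the other. Both readings were highest at 8 h, and at 24 h they gave nearly the same change, 1.04 and 1.09. Chka, choline kinase of phosphatidylcholine synthesis, was read by 3 source sequences, at 0.901 in VAD and 1.84 at 24 h, 0.995 and 2.19, and 0.758 and 2.12. Its 3 changes were 1.03, 1.14 and 1.49, with a mean of 1.22 ± 0.32. Gpam, which adds the first fatty acid in glycerolipid synthesis, was at 0.81 to 1.23 over 3 source sequences. Within 1 of these its 2 probe sets differed, at 0.15 and 1.83.

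Dnm1l (Drp1), the dynamin that divides mitochondria, was read by 4 source sequences. They gave ratios of 0.561 in VAD and 1.64 at 24 h, 0.959 and 1.99, 0.792 and 1.39, and 0.837 and 1.97. All 4 were above VAD by 0.81 to 1.54, with a mean of 1.16 ± 0.28. All but the first came from probe sets marked in their names as shared, so the 4 may not be separate readings, which the error takes them to be. Bcl2l1, which encodes the survival protein Bcl-xL and its splice forms, also had 4 source sequences, at 0.67 to 1.02. Ppp3r1, the regulatory subunit of calcineurin, was at 2.25 and 0.77, and Sod3, extracellular superoxide dismutase, at 2.20 and 0.61. In both genes a source sequence with a low VAD ratio, 0.356 and 0.695, gave the larger change. Gadd45a, a growth arrest gene, was at 1.53 and 0.67, Atp1b2, a sodium pump subunit, at 1.38 and 0.86 (the latter from probe sets at 0.16 and 1.56), Tcf12, a helix-loop-helix transcription factor, at 1.05 and 0.90, and Nsf of vesicle fusion at 0.95 and 0.77.

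Gnrhr, the receptor of gonadotropin-releasing hormone, had ratios of 0.935, 0.986, 1.24 and 1.76 on its first source sequence. The second gave 0.873, 1.35, 1.68 and 2.76, and the third 0.909, 0.711, 0.839 and 1.37. All 3 were highest at 24 h, at 0.91, 1.66 and 0.59. Uchl1, a ubiquitin hydrolase of spermatogonia and neurons, was the 1 of the 20 higher genes not above VAD at both 4 and 8 h. Its mean change was only -0.05 at 4 h and -0.07 at 8 h, beside 0.77 at 24 h. The other 19 were above VAD on all 3 retinol arrays, where the same VAD array is the control each time. The remaining agreeing higher genes were St3gal2, Vipr1 and Slco2a1, with smallest source changes of 0.61 to 0.62.

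**Figure D2:**
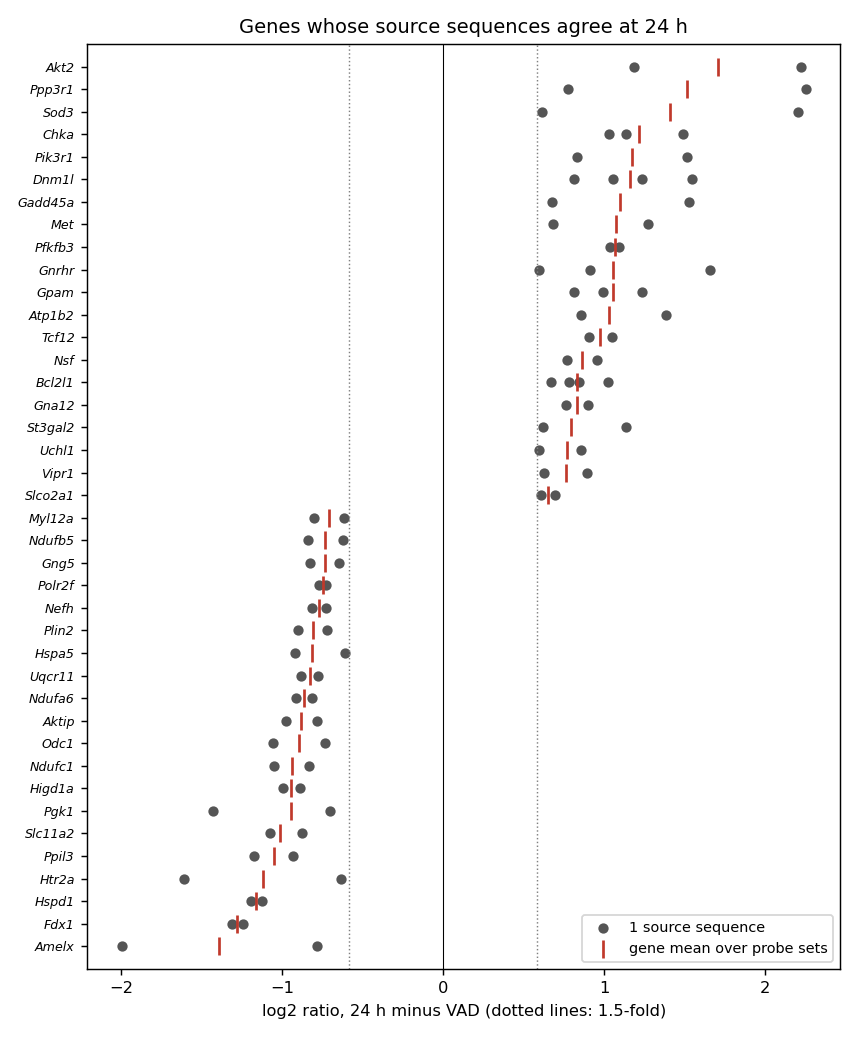
Grey points give the log2 change at 24 h against VAD of each source sequence of the 40 agreeing genes, red marks the mean over a gene's probe sets, and dotted lines mark 1.5-fold. Akt2 has the highest mean (1.70) and Amelx the lowest (-1.39), and for genes such as Fdx1, Hspd1 and Pfkfb3 the source sequences nearly coincide; spike-in scaling would move every point right by 0.62.

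The smallest source change of each of the 20 lower agreeing genes lay between -0.61 and -1.24. Spike-in scaling left 1 of the 20 agreeing and brought the smallest changes, such as Hspa5 at -0.61, to about 0. Several of the genes encode mitochondrial proteins, a grouping made after their values were seen and not tested. Fdx1 (ferredoxin) had ratios of 1.28 in VAD and 0.974, 0.646 and 0.514 at 4, 8 and 24 h on one source sequence and 1.22, 1.20, 0.872 and 0.516 on the other. Both readings were highest in VAD and lowest at 24 h. Their changes were -1.31 and -1.24, with a mean of -1.28 ± 0.39, or -0.96 taken against a ratio of 1. Higd1a, a hypoxia-inducible protein of the inner membrane, was at -0.999 and -0.889. Respiratory chain subunits were Ndufc1 (-1.05 and -0.83), Ndufa6 (-0.91 and -0.81) and Ndufb5 (-0.84 and -0.62) of complex I and Uqcr11 (-0.89 and -0.78) of complex III. Higd1a, Ndufc1, Ndufa6 and Uqcr11 were read only from expressed sequence tags, a kind of probe set with a median of -0.26, described below. Ndufb5 and Fdx1 were each read from a tag and another entry.

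Hspd1 and Hspe1 encode the mitochondrial chaperonin Hsp60 and its partner Hsp10, which fold imported proteins together. Hspd1 had ratios of 0.982, 0.615, 0.618 and 0.449 on one source sequence and 1.09, 0.682, 0.619 and 0.477 on the other, lowest at 24 h on both. Its changes were -1.13 and -1.19. Hspe1 has 1 source sequence and is not in the agreeing list. Its 2 probe sets had ratios of 1.27, 0.821, 0.661 and 0.502 and of 1.31, 0.899, 0.664 and 0.487, with changes of -1.34 and -1.42. In RefSeq's annotation of GRCr8 the genes start head to head on chromosome 9. Their promoter windows, 250 bases before to 50 after each start, overlap by 211 bases (chr9:64084077-64084287). The windows are shown because the data give similar values for these neighbours. Capitals mark a heat shock element, the letters GAANNTTC searched on both strands, which lies at the same place (chr9:64084267-64084274) in both windows. These letters were found in 8.59% of 33469 promoter windows of this length, so a match is a description and not a site.
Hspd1, chr9:64083988-64084287, minus strand: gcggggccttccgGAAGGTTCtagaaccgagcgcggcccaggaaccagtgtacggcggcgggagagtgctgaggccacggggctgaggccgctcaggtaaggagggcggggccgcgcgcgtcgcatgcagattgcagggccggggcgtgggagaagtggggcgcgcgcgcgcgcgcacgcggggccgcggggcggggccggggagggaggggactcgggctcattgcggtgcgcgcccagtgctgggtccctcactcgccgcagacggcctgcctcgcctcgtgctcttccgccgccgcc
Hspe1, chr9:64084077-64084376, plus strand: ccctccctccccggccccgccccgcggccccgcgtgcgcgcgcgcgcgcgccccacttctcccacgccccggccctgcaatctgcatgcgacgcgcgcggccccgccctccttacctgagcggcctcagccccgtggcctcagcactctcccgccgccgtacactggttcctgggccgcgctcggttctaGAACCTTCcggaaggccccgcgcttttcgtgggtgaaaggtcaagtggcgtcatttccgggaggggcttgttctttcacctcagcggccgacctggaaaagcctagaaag
Of 32 measured chaperone genes, these were the 2 past 2-fold lower, and 0 were past 2-fold higher, beside 2.64% and 3.27% of all genes. The endoplasmic reticulum chaperone gene Hspa5 (BiP) was also agreeing, at -0.92 and -0.61. The list's median was -0.22, 0.10 below that of all genes. Hspa9, the mitochondrial Hsp70, was at 0.31, and Hsp90ab1 at -0.12. Reading each gene from its probe set of highest mean ratio put the list 0.13 above all genes, so its place is not settled.

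Other lower agreeing genes have roles outside these groups. Ppil3, a cyclophilin of the spliceosome, was at -1.17 and -0.93. Slc11a2, the DMT1 iron importer, had ratios of 0.973, 0.732, 0.664 and 0.529 on one source sequence, lower on each later array. Its 2 changes by source sequence were -1.08 and -0.88. Odc1, the enzyme that starts polyamine synthesis, was at -1.06 and -0.73, the glycolytic enzyme gene Pgk1 at -1.43 and -0.71, and Plin2 of lipid droplets at -0.90 and -0.72. Amelx (-1.998 and -0.786) and Nefh (-0.82 and -0.73) were the exceptions among the 20 that were not below VAD at both 4 and 8 h. Amelx, an enamel gene, had a ratio of 0.683 in VAD and 0.332, 1.25 and 0.171 at 4, 8 and 24 h on one source sequence. The other lower agreeing genes were Aktip, Polr2f, Gng5, Myl12a and Htr2a.

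How a probe set was made moved with its change. Many probe sets of this array come from expressed sequence tags, short single reads of cDNA that usually lie near the 3′ end of a transcript. The 3417 tag probe sets had a median of -0.26, with 2.87% at least 2-fold higher and 5.06% lower. The 638 probe sets made from coding sequence had a median of 0.08, with 8.78% higher and 1.72% lower. Among the 20 higher agreeing genes, 0 were read from tags alone, 15 without tags and 5 from both. Among the 20 lower genes the numbers were 7, 5 and 8, and among all 1083 genes 104, 503 and 476. Without tag probe sets 20 higher and 6 lower genes agreed, of 593, and with tags alone 0 and 8, of 175. Control probe sets along single transcripts had the same direction: beta-actin stood at 1.52 at its 5′ end, 0.88 in the middle and 0.22 at its 3′ end, GAPDH at 0.59, 0.03 and -0.33 and hexokinase at 1.36, 0.68 and 0.56. The part of these differences in the gene results was not tested.

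**Figure D3:**
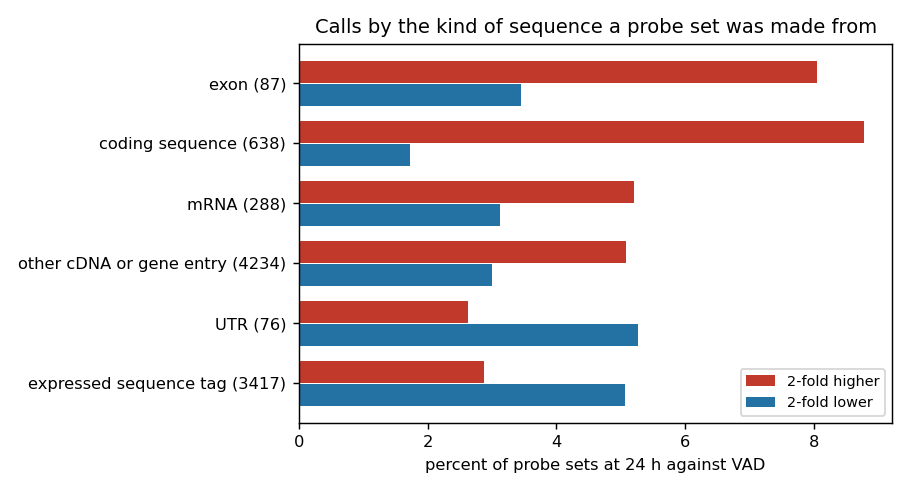
Bars give the percent of probe sets at least 2-fold higher (red) or lower (blue) at 24 h against VAD for each kind of sequence a probe set was made from, with the number of probe sets in parentheses. Coding sequence probe sets are 8.78% higher and 1.72% lower, and tags 2.87% and 5.06%; spike-in scaling would lengthen the red bars and shorten the blue ones.

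Of 24 measured genes on the steroid synthesis list, 5 were at least 2-fold lower at 24 h and 0 at least 2-fold higher. Their median was -0.37, 0.25 below that of all genes. The list also holds steroid-converting enzymes outside the path to testosterone, such as Hsd11b2. In whole testis, fewer cells of a type and less RNA per cell cannot be told apart. Cyp11a1 had ratios of 1.21 in VAD and 1.09, 1.04 and 0.313 at 4, 8 and 24 h, a level near VAD on the first retinol arrays and well below it on the last. The change was -1.95 ± 0.56 on 1 probe set, a 3.87-fold difference. Cyp17a1 had ratios of 1.01, 0.615, 0.526 and 0.326, lower on each later array, for a change of -1.63 on 1 probe set. Fdx1, described above, stood between these patterns and was the only one of the 5 with more than 1 source sequence. The others were Hsd17b8 (-1.92), a member of the hydroxysteroid dehydrogenase family, from a tag, and Hsd11b2 (-1.06), which inactivates glucocorticoids. Spike-in scaling left Cyp11a1, Hsd17b8 and Cyp17a1 past 2-fold lower, and Fdx1 and Hsd11b2 lower but short of it.

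Cholesterol delivery was less settled. Star, which carries cholesterol into mitochondria, had ratios of 0.945, 1.39, 0.846 and 0.506 on one source sequence and 0.986, 1.47, 1.30 and 0.808 on the other. Both were highest at 4 h and lowest at 24 h, with changes of -0.90 and -0.29. Scarb1, the receptor that takes up cholesterol from lipoproteins, ranged from -1.11 to 0.06 over 3 source sequences, and Tspo of the outer mitochondrial membrane was at -0.61. Spike-in scaling would turn the means of Star, Scarb1 and Tspo to about 0 or above. Of the later steps, Hsd17b3, which completes testosterone, was at -0.29, Hsd17b1 at -0.97 and aromatase (Cyp19a1) at 0.66. Among the 18 Leydig cell genes, which share members with this list, 1 was past 2-fold higher and 3 lower, with a median of -0.30.

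The regulators of steroid synthesis were placed on the other side of the median. Of 24 measured, 5 were at least 2-fold higher and 0 lower, and the median was 0.23, 0.35 above all genes. Nr0b1 (DAX1), which represses steroidogenic transcription, had ratios of 1.09, 3.50, 5.77 and 4.91, high on all 3 retinol arrays. Nr5a1 (SF-1), which activates it, had 0.763, 1.31, 1.81 and 2.36, for a change of 1.63. Nr0b1 is also on the list of Sertoli cell genes below, and in whole testis the cell type behind its value cannot be told. The oestrogen receptor gene Esr1 had 0.951, 1.26, 1.99 and 3.16, and the transcription factor gene Sp1 had 0.851, 1.53, 2.22 and 2.70, both highest at 24 h. Their changes were 1.73 and 1.67, and that of the growth hormone receptor gene Ghr was 1.02. Ghr rested on 1 of its 2 source sequences, which stood at 1.59 and -0.13, and counting each of these once put it at 0.73.

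None of Nr0b1, Nr5a1, Esr1 and Sp1 had a second source sequence. Nr5a1 was read from coding sequence, the kind of probe set most often 2-fold higher. Where regulators had more, the readings often differed. Lhcgr, the luteinising hormone receptor of Leydig cells, had 5 source sequences between -0.92 and 0.91, and Gata4, a factor of Sertoli and Leydig cells, stood at 1.07 and 0.37. Of 10 regulators with more than 1 source sequence, 3 had all of them above the median of all genes and 0 all below it, where 30.7% and 18.8% of all such genes did. In RefSeq promoter windows of Cyp11a1, Fdx1, Nr0b1 and Nr5a1 the SF-1 letters AAGGTCA, searched on both strands, were not found. They were present in 4.61% of all windows, among them that of Hspe1. Variant forms of the site were not searched, so a window without these letters may still hold one. The heat shock letters were also present in the Cyp11a1 window.

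**Figure D4:**
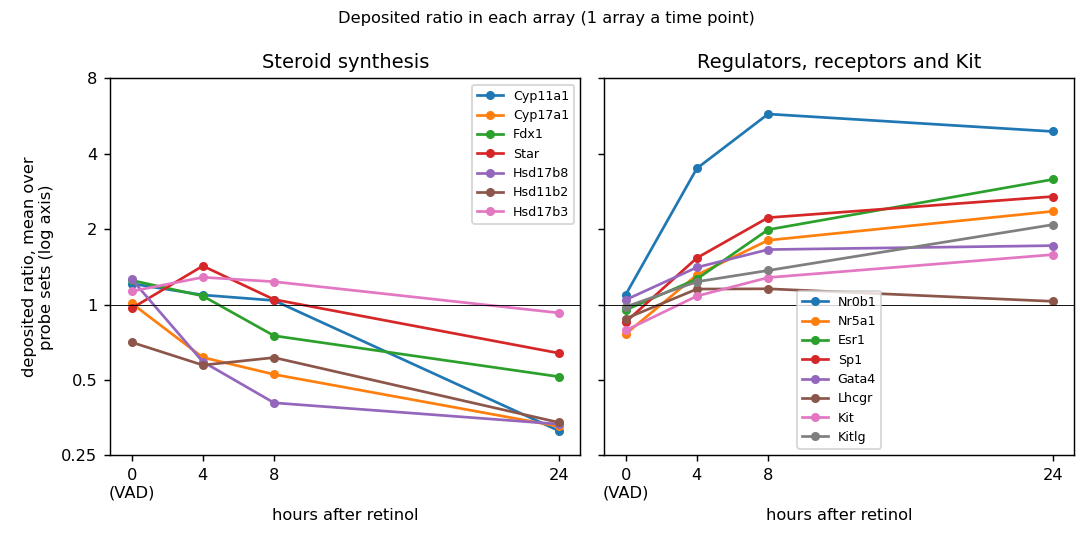
Lines join the deposited ratio of a gene, averaged over its probe sets, in the 4 arrays (x axis, hours after retinol; y axis, log scale; 1 array each, so no error bars). Cyp11a1 stays near 1 until 8 h and is at 0.313 at 24 h, while Nr0b1 is at 4.91 and Kitlg at 2.09; spike-in scaling would move the 24 h points up by 0.62 on the log2 scale, which turns Star and Hsd17b3 to above their VAD value.

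Kit signalling links Sertoli cells, which make the ligand Kitlg, to differentiating spermatogonia, which carry the receptor Kit. One probe set of Kitlg had ratios of 0.930, 1.56, 1.69 and 2.57, and the other 1.03, 0.976, 1.11 and 1.70. Both were highest at 24 h. The 2 probe sets come from the same source sequence and gave 1.46 and 0.72. Kit had 0.80, 1.08, 1.24 and 1.35 on one probe set and 0.777, 1.08, 1.33 and 1.85 on the other, also of 1 source sequence. Both lay above VAD on every retinol array and were highest at 24 h. Of the 14 measured niche genes these were the 2 past 2-fold higher, and 0 were lower by that much. Over all genes the shares were 3.27% and 2.64%. The mean of Kit, 1.01, lay close to the threshold. It was 0.66 against a ratio of 1, and a pseudocount of 0.1 also put it short of 2-fold. Lif, a cytokine of the tubule, was at 0.80, Gdnf, the Sertoli factor of spermatogonial stem cells, at 0.19, its receptor genes Gfra1 at 0.24 and Ret at -0.45, and Bmp4 at -0.94.

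Sertoli cell genes did not move as a block. Of 30 measured, 4 passed 2-fold upward and 2 downward, beside 3.27% and 2.64% of all genes. Among the 4 were Nr0b1, also on the list of steroidogenic regulators, and Kitlg, also on the niche list. The median of -0.11 was 0.01 above that of all genes. Wt1, the transcription factor that maintains Sertoli cells, had source sequences at 0.07, 1.42 and 1.59, the lowest of them from a tag. Gja1, the gap junction protein connexin 43, was at 1.02, while the water channel gene Aqp8 was at -1.13 and the junction gene Espn at -1.08. Among the germ cell lists, the 19 spermatid genes had a median of -0.57, 0.45 below all genes, with 15 below the median of all genes and 0 and 2 past 2-fold higher and lower. Spike-in scaling would bring this median to about 0. Odf1 of the sperm tail had ratios of 1.35 in VAD and 2.25, 1.05 and 0.675 at 4, 8 and 24 h, highest at 4 h and lowest at 24 h, and Odf2 1.16, 1.40, 0.917 and 0.550. Median centring, spike-in scaling, taking 24 h against a ratio of 1 and a pseudocount of 0.1 each put both genes short of 2-fold. The spermatid list's median was 0.27 at 4 h. The 15 spermatocyte genes had medians of 0.38 at 4 h and -0.19 at 24 h, and the 5 genes that mark differentiating spermatogonia and entry into meiosis, 3 of them also in that list, 0.38 and 0.21. The 8 genes of undifferentiated spermatogonia were at -0.13 and -0.19. Uchl1, the agreeing higher gene at 0.77, was not on that list, whose highest member stood at 0.29. Differences between these lists were not tested.

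Genes that handle the vitamin itself moved both ways. Of 19 measured, 1 was at least 2-fold higher and 2 lower, beside 3.27% and 2.64% of all genes, and the median was -0.09. Adh4, an alcohol dehydrogenase that can oxidise retinol, had ratios of 1.18, 1.58, 1.94 and 2.68, higher on each later array. Rdh10, the retinol dehydrogenase of embryonic retinoic acid synthesis, was at 0.56 and peaked at 8 h, where its ratio was 2.04. Of the enzymes that make retinoic acid from retinal, Aldh1a1 was at -0.60 and Aldh1a2 at -0.70. Crabp2, which carries retinoic acid to its receptors, had 0.394 in VAD and 0.174 at 24 h, and Fabp5, another carrier of it, had 1.03 and 0.387. These are the 2 genes past 2-fold lower, at -1.18 and -1.42, each from 1 probe set. A pseudocount of 0.1 put Crabp2 at -0.85, and spike-in scaling put both genes short of 2-fold. Among receptors Rara was at 0.35, with source sequences at 0.69 and 0.18, and Rarb at 0.01. The partner receptor Rxra stood at -0.50, Rxrg at -0.30 and Rxrb at 0.40, and none of the 5 passed 2-fold.

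The genes with the largest means mostly had a single source sequence, so nothing repeats them. Pla2g2a, a secreted phospholipase of inflammation, had ratios of 0.904, 2.05, 3.94 and 12.2, higher on each later array, for a change of 3.75 ± 0.56. Pla2g5, a related phospholipase, was at 2.06 on a coding sequence probe set. The neutrophil calcium-binding genes S100a8 and S100a9 had 0.913 and 0.813 in VAD and 4.03 and 2.34 at 24 h, and the macrophage chemokine gene Ccl3 had 1.18 and 4.05. Of 31 measured iron and acute phase secretory genes 5 passed 2-fold upward and 0 downward, with a median of 0.28, 0.40 above all genes. Pla2g2a and Ccl3 are on this list, which was written with earlier results of these data known, so its count and median only describe it. Its lowest member was the haptoglobin gene Hp, at -0.79. On the 29 members with probe sets other than tags the median was 0.10, where that of all genes was -0.01. On the 7 members read by tags the list lay at -0.03 relative to all genes, below them. Of 12 macrophage genes 2 were higher (Ccl3 and C1qc), and the median was 0.29. The markers Aif1 (-0.51) and Csf1r (-0.39) were below VAD, and Cd14 (0.50) and Itgam (0.44) above it. Of 25 genes of other leukocytes 4 were higher and 2 lower, with a median of 0.06. The part of cell numbers in these values was not tested.

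The 10 largest positive means also included Nr0b1, given above. Ptprd, a receptor phosphatase of neurons, was at 2.92, the adhesion gene Cadm1 at 2.16, and the semaphorin gene Sema4b at 2.10. The ephrin gene Efnb1 was next after the 10, at 2.09. Gm2a, the lysosomal activator of ganglioside breakdown, had 0.488 in VAD and 2.87 at 24 h, so that part of its change of 2.56 lies in a low VAD ratio. Cd36, which takes up fatty acids, had 0.861, 2.14, 2.77 and 2.76 on one probe set and 0.775, 3.26, 4.75 and 4.68 on the other, both of 1 source sequence and already high at 4 h. Oxsr1, a stress-responsive kinase, was at 2.27 and Vom2r18, a vomeronasal receptor, at 2.29. Ptprd and Gm2a were each read from coding sequence, the kind of probe set most often 2-fold higher.

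At the other end, Dpysl4, a collapsin response mediator of axon growth, had ratios of 1.13, 1.03, 0.343 and 0.0703, a 16.1-fold difference at 24 h on 1 probe set. The 24 h ratio is close to 0, and a pseudocount of 0.1 put the change at -2.86 in place of -4.01. At 4 h the ratio was near that of VAD. The testican proteoglycan gene Spock2 had 0.632, 0.187, 0.113 and 0.0728 and was low from 4 h on. Cd52, a surface protein of lymphocytes and of the epididymis, had 2.88, 1.23, 0.565 and 0.492, and its high VAD ratio makes up part of the change of -2.55. Scgb2a1, a secretoglobin of accessory glands, was at -2.24. Of 12 measured genes of epididymis and accessory glands 0 were past 2-fold higher and 2 lower (these same genes), with 11 below the median of all genes and a list median of -0.50. Tuba4a, a tubulin gene, had 1.40, 0.495, 0.397 and 0.349. The Gabra4 mean of -1.95 came from source sequences that disagreed, at -3.95 and 0.06.

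Housekeeping complexes lay low as whole lists, though with few members past 2-fold. The 42 cytosolic ribosomal protein genes had a median of -0.57 and the 54 genes of the respiratory chain and ATP synthase of -0.56, which is 0.46 and 0.44 below all genes, and spike-in scaling would bring both to slightly above VAD. Below the median of all genes were 40 of 42 and 47 of 54. Of those with more than 1 source sequence, 7 of 7 ribosomal and 15 of 22 respiratory genes had every source sequence below that median, where 18.8% of all such genes did. The lists were low on tags, at -0.61 and -0.61, and on other probe sets, at -0.50 and -0.45, where the medians of all genes were -0.29 and -0.01. Past 2-fold lower were Rpl17 (-1.02), Ndufb9 (-1.13) and Ndufb2 (-1.11), and past 2-fold higher was Rplp1l3 (1.75). The 31 proteasome and ubiquitin genes had a median of -0.40. Past 2-fold were 1 higher and 2 lower, beside 3.27% and 2.64% of all genes. Of 13 with more than 1 source sequence, 8 had all of them below the median of all genes. The proteasome gene Psma5 is 1 of the 2 lower, but its mean of -1.17 came from a tag at -2.74 and another source sequence at -0.39.

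Iron genes lay on both sides of VAD. Tfrc, the transferrin receptor that brings iron into cells, had ratios of 0.603, 1.80, 3.05 and 1.41, highest at 8 h, for a change of 1.23. Its VAD ratio was low, and against a ratio of 1 the change was 0.50. Slc11a2, which moves iron out of the endosome, was lower on both source sequences, as given above, and Ireb2, an iron regulatory protein, was at 0.98. The exporter gene Slc40a1 was at 0.51. Of 13 measured iron genes 1 was past 2-fold higher and 1 lower, beside 3.27% and 2.64% of all genes, with a median of 0.31.

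**Figure D5:**
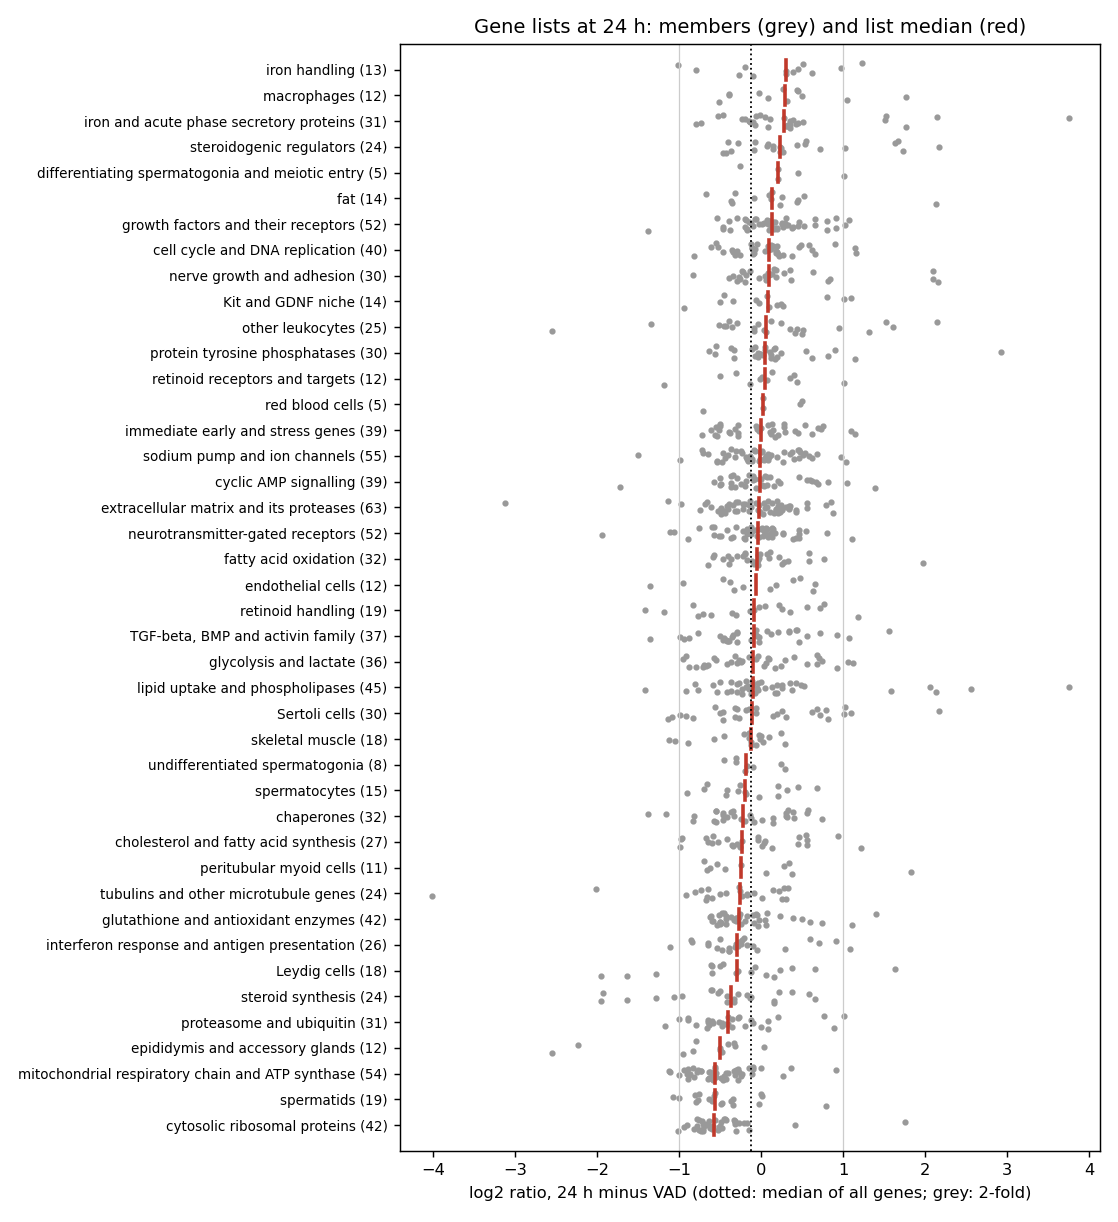
Grey points are the members of each gene list (number measured in parentheses), red bars the list medians and the dotted line the median of all genes, on the log2 scale of 24 h minus VAD; grey lines mark 2-fold. Ribosomal, spermatid and respiratory chain lists lie lowest, with medians of -0.57, -0.57 and -0.56, and iron handling highest at 0.31; spike-in scaling would move every point right by 0.62, which turns the low medians to about 0 and leaves their order.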

How the data were processed

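Whole rat testis was measured on the Affymetrix Rat Genome U34 array, with biotinylated cRNA made from 10 micrograms of total RNA per the labels' protocols. The authors deposited linear ratios per probe set. The submitters' processing notes name GCOS and MAS5, with no version. The reference of the ratios, the scaling between arrays and the genome build are unstated there. Of 8799 probe sets, 59 were controls, 7006 carried 1 symbol, 308 several and 1426 were not listed in the platform annotation. Symbols were updated through RefSeq's gene table for 6985. Source sequences were taken from the database entry in the probe set's name. Differences were computed in Python 3.11.15 with pandas 2.3.3 and checked on simulated data. The ratios hold no depth or signal, and 1 array a group limits the precision. Genes open to naming, of which part is printed, were those agreeing at 2-fold, the 15 a direction with the largest smallest-source change, the 10 largest means a direction, all members of the retinoid, steroid and Kit lists and 4 of each other list. The remaining agreeing genes, late genes and other list members were picked with their values in view. The members and lists were chosen with earlier results of these data known. Alternatives covered probe set choice, annotation, array scaling, pseudocount and threshold.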

Additional observations from a re-analysis of the deposited data

Results flagged for a closer look

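Probe sets that the platform annotation does not list, and those it gives several symbols, entered no gene value, yet many differed at 24 h. Of the 1426 not listed, 48 were at least 2-fold higher than VAD and 69 lower. The largest changes among them were 2.54, with a ratio of 1.99 in VAD and 11.6 at 24 h, and -3.75, with 1.36 and 0.101. Of the 308 with several symbols, 17 were at least 2-fold higher and 19 lower, with extremes of 2.03 and -3.23. No untreated array other than VAD was available to set these against, and their share was 3.37% higher and 4.84% lower for the first kind and 5.52% and 6.17% for the second, beside 4.68% and 3.41% of the probe sets with 1 symbol.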

How the results depend on the processing

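No paired analysis was possible because each group holds 1 sample, which also leaves no replicate to take out. The counts of 155 higher and 125 lower genes and of 20 and 20 agreeing genes gave 26 values within 1.5 times over the alternatives. The others were as follows. The probe set of highest mean ratio gave 284 higher genes. Leaving out probe sets marked as shared or rule-broken in their names left 9 and 10 agreeing genes, and leaving out tags left 70 lower genes and 6 agreeing lower genes. Probe sets with a VAD ratio within 10% of 1 gave 54 and 63 genes, 5 and 7 agreeing. Median centring gave 80 lower and 32 agreeing higher genes, and spike-in scaling 744 and 13, with 259 and 1 agreeing. A pseudocount of 0.1 gave 65 lower genes. A 3-fold threshold gave 31 and 14 genes, and a 2-fold one 3 and 2 agreeing. After the data were seen, tags alone gave 40 and 70 genes, 0 and 8 agreeing, and centring tags and other entries apart gave 80 lower and 11 agreeing lower genes. Under median centring 20 and 15 of the agreeing genes remained. Relative to all genes, some list medians changed sign: cholesterol and fatty acid synthesis to 0.19 (highest probe set) and 0.010 (against a ratio of 1), chaperones to 0.13 (highest probe set), neurotransmitter receptors to -0.000305 (no tags) and immediate early genes to -0.046 (VAD ratio near 1). The iron and acute phase secretory genes changed to -0.0268 (tags alone). Gabra4 went to 0.055 with its highest probe set, the 1 reversal among 96 named genes past 2-fold. The cause was not tested. Spike-in scaling took 29 of the 96 out of the 2-fold range, a pseudocount 31 and taking 24 h against a ratio of 1 took 28, among them Akt2 (0.95) and Fdx1 (-0.96). Ratios carry no signal over background, so dim probe sets could not be set aside.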

Other observations

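The gene means of some genes stood near VAD at 4 and 8 h and apart from it at 24 h. With a mean of less than 0.5 in size at both early times and at least 2-fold at 24 h, a rule chosen after the values were seen, 10 genes were higher and 16 lower. Besides Kitlg and Gnrhr, the higher genes included Pdk4, the kinase that shuts pyruvate out of mitochondria, at 0.39, 0.24 and 1.12 at 4, 8 and 24 h, and Chm, a Rab escort protein, at 0.09, 0.13 and 1.09. The lower genes were led by Cyp11a1, followed by Tesc, a calcium-binding protein gene named for the testis, at -0.28, -0.33 and -1.79. The potassium channel gene Kcnc1 was at 0.09, -0.19 and -1.50, and the RNA editing enzyme gene Adarb1 at 0.42, 0.21 and -1.32. Only Gnrhr, with 3 source sequences, and Ugt2b35, with 2, had more than 1, and those of Gnrhr were agreeing. The other genes of this kind, Cyp11a1 among them, had 1 source sequence each and could not be checked for agreement. Single readings do not all keep to the rule: one Kitlg probe set went from 0.930 in VAD to 1.56 and 1.69 at 4 and 8 h, and one Gnrhr source sequence from 0.873 to 1.35 and 1.68. Ugt2b35 was among the higher genes on a mean of source sequences at -0.54 and 3.52.

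Of 52 growth factor and receptor genes, 38 lay above the median of all genes, with a list median of 0.13, which is 0.25 above it. Of 23 with more than 1 source sequence, 9 had all of them above that median and 1 all below, beside 30.7% and 18.8% of all such genes. Past 2-fold were Met (1.07) and Ghr (1.02) higher and the vascular factor gene Angpt2 (-1.38) lower. Counting each source sequence once put Met at 0.98 and Ghr at 0.73, under 2-fold. Of 30 protein tyrosine phosphatase genes 24 lay above the median, led by Ptprd at 2.92 and the stress-induced Dusp1 at 1.14, whose 3 source sequences stood at 1.96, 1.47 and -0.01.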
